A study of Homo sapiens with 12 samples.

Results

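The genes described here are those that the study's authors listed as differing both after RSL3 and after ATOH8 overexpression in DU145, a human prostate cancer cell line. They were found by gene symbol in the RSL3 table (1810 listed genes) and in the ATOH8 table (1424 listed genes), and 252 were in both, which is 13.9% of the first table and 17.7% of the second. The members were thus chosen by the authors' calls and by measured values, since each was placed in 1 of 4 classes by the sign of its log2 ratio of group means in each table: higher in both (78 genes), lower in both (124), higher with RSL3 but lower with ATOH8 (33), and lower with RSL3 but higher with ATOH8 (17). The study, a screen for regulators of ferroptosis, sequenced RNA of 12 DU145 libraries in 4 groups of 3. Wild-type cells received DMSO or RSL3, with RSL3 given for 24 h, and the other cells carried a control construct (oeCTRL) or an ATOH8 overexpression construct (oeATOH8) with no treatment in their labels. No library is shared between the RSL3 comparison and the ATOH8 comparison. It is not stated in the labels if the 3 replicates of a group came from separate cultures, nor what drives the construct, and reads from the construct and from the cells' own ATOH8 gene were not separated.

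RSL3 binds the selenoenzyme GPX4, which reduces lipid hydroperoxides in membranes, and cells in which GPX4 is blocked die by ferroptosis, an iron-dependent death driven by lipid peroxidation. ATOH8 is a basic helix-loop-helix transcription factor of the atonal family, which pairs with E proteins such as TCF3 and binds E-box DNA. Cells under lipid peroxide stress are known to raise targets of NRF2, the factor of the antioxidant response, and of ATF4, the factor of the amino acid and unfolded protein responses. Interferon-stimulated genes are driven by STAT and IRF factors through the interferon-stimulated response element, and many cancer lines keep some of them on without added interferon.

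Each table is limited to the authors' called genes, and an unlisted gene was not analysed here. SCD was in the ATOH8 table alone, and TCF3 and GPX4 were in neither table. Over the listed genes the libraries held 2523743 to 3096832 recovered reads in the RSL3 table and 1508188 to 2226518 reads in the ATOH8 table, which are not library depths. Replicate 1 stood apart in both groups of the RSL3 table. Set against counting error, where a chi-square divided by its degrees of freedom is 1, replicates 2 and 3 gave 1.64 (DMSO) and 1.80 (RSL3), pairs with replicate 1 gave 59.1 to 101, and pairs in the ATOH8 table gave 6.34 to 39.3. The RSL3 groups may therefore hold fewer than 3 independent samples. Of 5 epithelial markers fixed for DU145, EPCAM and CDH1 were in the RSL3 table and KRT8 and CDH1 in the ATOH8 table, all lower in the treated group; 0 of 4 prostate luminal and 0 of 4 fibroblast markers were in either. Of 5 erythroid markers, the globin genes HBA1, HBA2 and HBB were in the ATOH8 table and ALAS2 was not. Their summed level was 4.1 to 12.6 scaled reads in oeCTRL, and 55036, 3219.8 and 12796 in oeATOH8 replicates 1, 2 and 3. Of 3 macrophage markers, CD68 was in the RSL3 table, at 787 to 1607 normalised reads in DMSO and 1498 to 4290.3 in RSL3. None of these globin or macrophage genes was among the 252, and their part in the results below was not tested. In bulk RNA, fewer cells of one kind and less RNA per cell cannot be told apart.

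Most genes that both tables listed lay on the same side in both. Of the 252, 202 (80.2%) had the same sign, and 50 (19.8%) had opposite signs. Among the 111 genes higher with RSL3, 78 (70.3%) were higher with ATOH8, and among the 141 genes lower with RSL3, 124 (87.9%) were lower with ATOH8. The classes were made from these signs, so the counts are a description and carry no test. Of all genes in the RSL3 table, 52.9% were higher and 47.1% lower, and of all genes in the ATOH8 table, 41.4% were higher and 58.6% lower. The shared genes leaned further to the lower side in both tables: 44.0% were higher with RSL3 against 54.4% of the 1558 RSL3 genes that were not shared, and 37.7% were higher with ATOH8 against 42.2% of the 1172 ATOH8 genes that were not shared. Some of these 1172, among them 272 assembled loci, had no symbol and so could not be shared. Across the 252 genes the log2 ratios had a Spearman correlation of 0.53 and a Pearson correlation of 0.55, or 0.54 without ATOH8 itself. This correlation is across genes of 1 cell line, which are not independent replicates, and the control levels in DMSO and oeCTRL also correlated (Spearman 0.66).

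**Figure D1:**
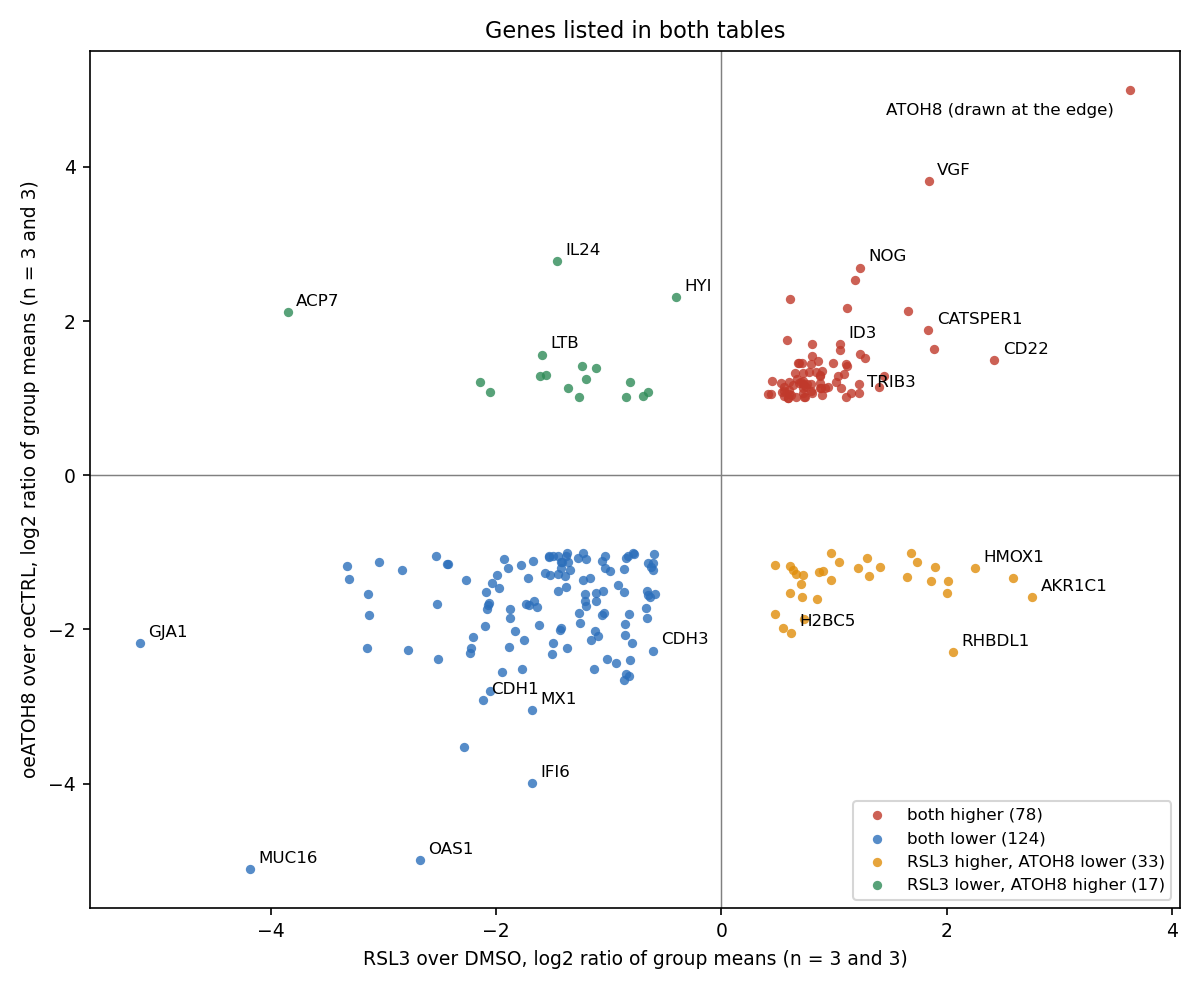
Each point is 1 of the 252 genes, placed by its log2 ratio of group means for RSL3 over DMSO (horizontal axis) and for oeATOH8 over oeCTRL (vertical axis), with 3 libraries per group and colours for the 4 classes. The band near 0 on the vertical axis is empty because no listed ATOH8 gene had a log2 ratio between -1.001 and 1.001, and ATOH8, at 13.01 on that axis, is drawn at the upper edge.

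The size of the responses differed by class. Genes lower in both had a median log2 ratio of -1.43 with RSL3 and -1.56 with ATOH8, and 95 of the 124 (76.6%) differed over 2-fold with RSL3. Genes higher in both had medians of 0.80 and 1.21, and 25 of the 78 (32.1%) were over 2-fold with RSL3, against 46.4% of the whole table. In the opposite classes the medians were 0.98 and -1.31, and -1.26 and 1.25. By limma's moderated test on log2 values, 213 of 243 shared genes kept by the filter on low values had an adjusted p under 0.05 in the RSL3 table, against 82% of all genes tested there. These were 61 of 78 higher in both, 107 of 116 lower in both, and 30 of 32 and 15 of 17 in the opposite classes. This fit did not pair libraries by replicate number. Its count was 2 without DMSO replicate 2 or without DMSO replicate 3 (0.344% and 0.459% of all genes tested). It was 74 and 76 without RSL3 replicates 2 and 3 (19.7% and 17.8%). With the replicate numbers as a block and all libraries kept, 241 of 243 passed, against 99.3% of all genes tested. In the ATOH8 table edgeR's quasi-likelihood test called 252 of 252, against 100%. The 3 libraries of each group did not overlap for 71, 112, 31 and 13 genes of the 4 classes in the order above, in both tables at once; over all listed genes 86.4% (RSL3) and 99.6% (ATOH8) did not overlap. The 2 genes of each class nearest to no difference with RSL3 were CTPS1 (log2 ratio 0.41) and BRI3 (0.44), TP53INP2 (-0.59) and SALL2 (-0.60), GPRIN2 (0.48) and PRDX1 (0.48), and HYI (-0.40) and NFKB1 (-0.65), in the order of the classes above. With ATOH8 the nearest of each class included AEN, SFXN2, FRAS1, NXT2, TEF, HCN2 and NFATC2, all at a size of at most 1.02, at the edge of what the authors listed. The rule divides at 0, and CTPS1, BRI3 and STC2 moved from higher in both to lower with RSL3 when RSL3 values were scaled by library totals over the listed genes (log2 ratios of -0.031, -0.023 and -0.041).

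**Figure D2:**
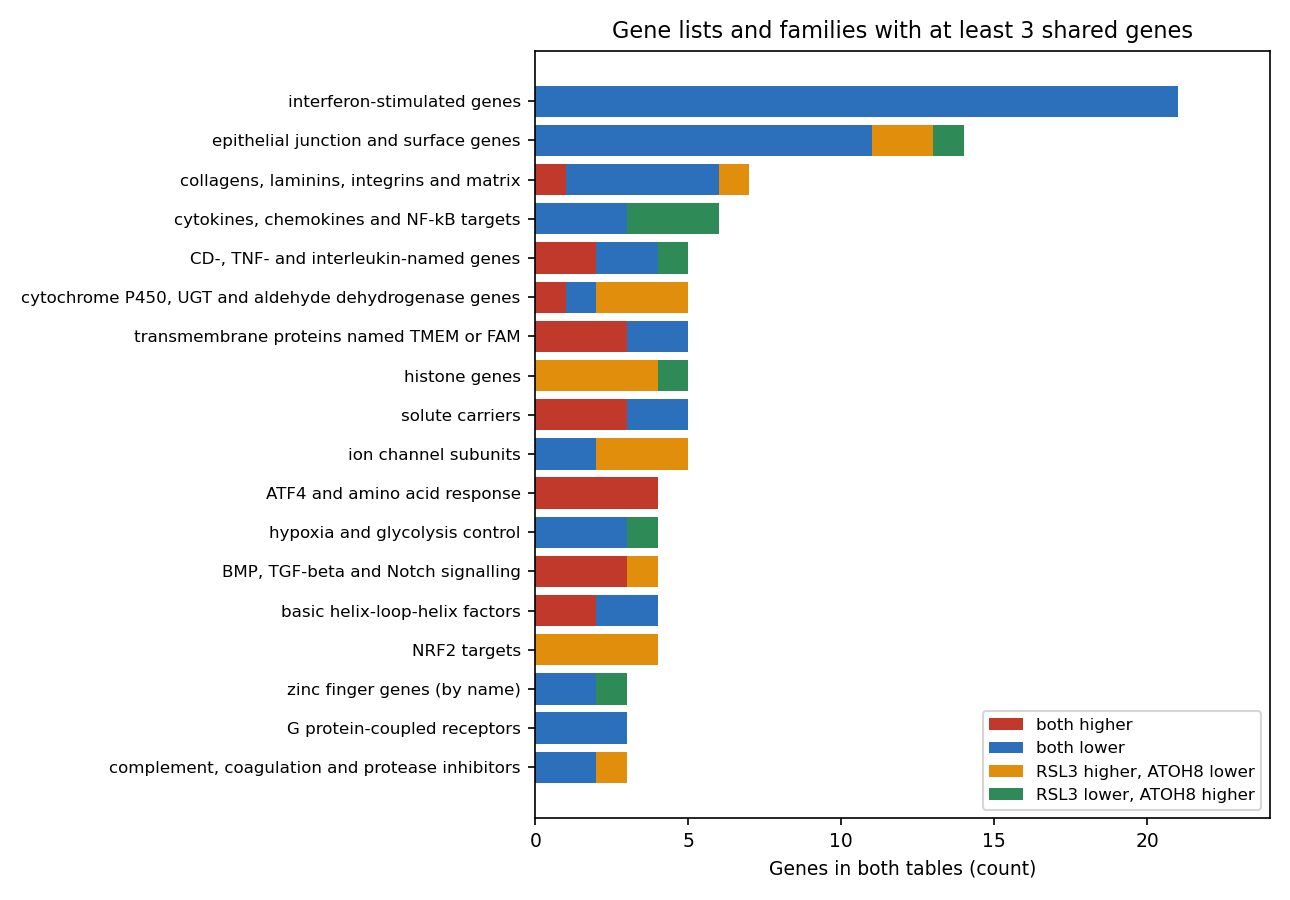
Bars count the shared genes of each gene list or gene family with at least 3 of them, split by class. Interferon-stimulated genes are in the class lower in both with 21 of 21, while the 4 NRF2 targets and 4 of 5 histone genes are higher with RSL3 and lower with ATOH8; the cytochrome P450 family also holds alcohol dehydrogenase, sulfotransferase and aldo-keto reductase genes.

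Interferon-stimulated genes formed the largest named group lower in both. Of 69 on the list, 27 were in the RSL3 table (1 higher, 26 lower) and 31 in the ATOH8 table (0 higher, 31 lower). The 21 in both, 77.8% of the first set and 67.7% of the second, were all lower in both, with a median log2 ratio of -1.68 in each comparison. Over all shared genes lower in both, the medians were -1.43 and -1.56. They hold the oligoadenylate synthetases OAS1, OAS2 and OAS3, which start the RNase L pathway; OASL, a related protein without that activity; the antiviral GTPases MX1 and MX2; the IFIT RNA-binding proteins; the sensors IFIH1 and DHX58; the ubiquitin-like ISG15; and IRF9, the DNA-binding subunit of the factor that drives them.

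OAS3 read 2471, 2404 and 2538 in DMSO and 219, 753 and 786 in RSL3 (normalised reads, replicates 1, 2 and 3), 4.22-fold lower. In the other comparison it read 5679, 5608 and 6214 in oeCTRL and 1751, 1898 and 1585 in oeATOH8 (scaled reads), 3.34-fold lower. The groups did not overlap in either, and RSL3 replicate 1 was the lowest of its group. IFIT1, which binds viral RNA lacking cap methylation, read 269, 263 and 298 in DMSO and 37.6, 85.4 and 91.97 in RSL3, 3.86-fold lower, and 1488, 1491 and 1497 in oeCTRL and 284, 226 and 256 in oeATOH8, 5.85-fold lower. IFIT3, its partner, read 64.8, 154 and 217 in DMSO and 10.1, 45.96 and 47.9 in RSL3, 4.198-fold lower, and 2043, 2143 and 2195 in oeCTRL and 642, 618 and 724 in oeATOH8, 3.22-fold lower. In both IFIT genes every treated library lay below every control library, and replicate 1 was again the lowest RSL3 library. OAS1 was nearly lost with ATOH8: it read 92.00, 158 and 160.2 in oeCTRL and 0, 5.13 and 7.75 in oeATOH8, 31.9-fold lower (53.4-fold without oeATOH8 replicate 3), and 78.04, 42.8 and 41.02 in DMSO and 0, 15.9 and 9.39 in RSL3, 6.39-fold lower (11.5-fold without RSL3 replicate 2). MX2 read 36.3, 35.1 and 35.8 in DMSO and 0, 14.1 and 4.69 in RSL3, 5.71-fold lower (15.2-fold without RSL3 replicate 2), and 146, 155 and 128 in oeCTRL and 39.8, 21.5 and 21.3 in oeATOH8, 5.198-fold lower. OAS1 holds few reads in both treated groups and MX2 in the RSL3 group, so these folds rest on 1 or 2 libraries. For MX2 every oeATOH8 library lay far below every oeCTRL library. OAS2 read 12.1, 9.93 and 19.2 in DMSO and 0, 7.504 and 0.939 in RSL3, 4.88-fold lower (3.26-fold without RSL3 replicate 1 and 29.3-fold without RSL3 replicate 2), and 208, 226 and 198 in oeCTRL and 27.2, 14.4 and 13.6 in oeATOH8, 11.5-fold lower.

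The groups did not overlap in both tables for 18 of the 21 genes, against 86.4% of all genes of the RSL3 table and 99.6% of the ATOH8 table, so the count does not set these genes apart. The following genes of the list were picked after their values were seen. IFI6, a mitochondrial and endoplasmic reticulum protein, read 2742, 1395 and 1382 in DMSO and 449, 607 and 670.1 in RSL3, and 1847, 1992 and 1914 in oeCTRL and 85.5, 137 and 139 in oeATOH8, so it was 3.198-fold lower with RSL3 and 15.9-fold lower with ATOH8. IRF9 read 465, 433 and 466 in DMSO and 168, 215 and 228 in RSL3, 2.23-fold lower, and 256, 364 and 198 in oeCTRL and 30.1, 116 and 40.7 in oeATOH8, 4.38-fold lower, or 7.70-fold without oeATOH8 replicate 2. ISG15 was 2.34-fold lower with RSL3 and 2.56-fold lower with ATOH8, and the smallest difference with RSL3 was that of HELZ2, a helicase (1.52-fold and 2.21-fold lower). OASL stood at 5.37-fold lower with RSL3 and 2.23-fold lower with ATOH8, while MX1 had the reverse order, 3.21-fold and 8.29-fold. The list's members thus did not keep 1 order of size across the comparisons.

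Promoter sequence of these genes is shown because the list shares a response element that the class rule did not use. RefSeq (GRCh38.p14) gives a promoter window, from 250 bases before to 50 after the start, for 13 of the 21 genes. The interferon-stimulated response element was searched by its textbook consensus of 10 bases on both strands, with overlapping matches kept. It was found in 10 of 13 windows (76.9%): IFI27, IFI6, IFIH1, IFIT1, IFIT3, IFITM3, ISG15, MX1, OAS3 and PLSCR1. The share was 6.25% (5 of 80) for the other genes lower in both and 3.65% of all 27305 windows of the table. A match is a description of letters, not a measured binding site. Capitals mark the matches below, 5′ to 3′ on the gene's strand.
IFI6 (chr1:27672251-27672373, minus strand, bases -181 to -59 from the start): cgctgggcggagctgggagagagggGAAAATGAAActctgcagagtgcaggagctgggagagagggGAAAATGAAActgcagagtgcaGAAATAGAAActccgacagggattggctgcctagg
IFIT1 (chr10:89392482-89392554, plus strand, bases -141 to -69 from the start): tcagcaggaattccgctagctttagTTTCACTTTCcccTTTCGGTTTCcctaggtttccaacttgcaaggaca
IFIT3 (chr10:89327816-89327909, plus strand, bases -181 to -88 from the start): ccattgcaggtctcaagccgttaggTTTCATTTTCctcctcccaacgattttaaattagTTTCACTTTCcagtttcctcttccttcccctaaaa
OAS3 (chr12:112938306-112938473, plus strand, bases -168 to -1 from the start): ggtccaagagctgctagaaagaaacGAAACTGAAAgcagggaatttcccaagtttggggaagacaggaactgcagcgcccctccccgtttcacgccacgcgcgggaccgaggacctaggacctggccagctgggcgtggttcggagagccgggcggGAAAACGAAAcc
ISG15 (chr1:1013359-1013424, plus strand, bases -138 to -73 from the start): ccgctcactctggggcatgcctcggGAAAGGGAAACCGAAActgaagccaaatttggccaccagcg
IFITM3 (chr11:320861-320937, minus strand, bases -77 to -1 from the start): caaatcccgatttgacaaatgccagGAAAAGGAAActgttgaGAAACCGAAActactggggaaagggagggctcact
PLSCR1 (chr3:146544652-146544711, minus strand, bases -104 to -45 from the start): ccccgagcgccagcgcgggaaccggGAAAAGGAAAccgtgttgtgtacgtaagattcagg
IFI6 has 3 matches, of which the first pair is the same 10 bases, and the pair in ISG15 overlaps by 4 bases. IFIT1 and IFIT3, close together on chromosome 10, both carry their matches in the reverse orientation. PLSCR1, a lipid scramblase with a single match here, also picked after its values were seen, read 322, 434 and 456 in DMSO and 109, 274 and 283 in RSL3, 1.82-fold lower, and 2365, 2286 and 2456 in oeCTRL and 1119.9, 941 and 1002 in oeATOH8, 2.32-fold lower.

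Epithelial junction and surface genes were the next group lower in both. Of 62 on the list, 27 were in the RSL3 table (2 higher, 25 lower) and 16 in the ATOH8 table (1 higher, 15 lower), and 14 were in both, 51.9% and 87.5% of the respective sets. Lower in both were 11 of these, among them the mucins MUC1 and MUC16, the cadherins CDH1 and CDH3, the adhesion and surface proteins CEACAM6 and MARVELD3, the focal adhesion protein TNS4, the epithelial transcription factor ELF3, the membrane protease ST14 and the lipid enzyme CDS1. CDH1, which encodes E-cadherin of adherens junctions, read 459, 443 and 464 in DMSO and 39.1, 129 and 146 in RSL3, 4.34-fold lower, and 1811, 1927 and 1691 in oeCTRL and 268, 233 and 218 in oeATOH8, 7.55-fold lower. Control and treated libraries were far apart in both, and RSL3 replicate 1 was the lowest. MUC1, a transmembrane mucin, read 4394, 2268 and 2226 in DMSO and 602, 893 and 921 in RSL3, 3.68-fold lower, and 705, 614 and 610.0 in oeCTRL and 155, 234 and 191 in oeATOH8, 3.33-fold lower. Here DMSO replicate 1 was the highest control, and the groups still did not overlap. TNS4 read 57.2, 91.6 and 117 in DMSO and 20.3, 16.9 and 19.7 in RSL3, 4.67-fold lower, and 107, 100.3 and 89.3 in oeCTRL and 21.4, 13.3 and 28.1 in oeATOH8, 4.72-fold lower. CDH3, which encodes P-cadherin, read 3481, 2196 and 2238 in DMSO and 1564, 1843 and 1783 in RSL3, 1.52-fold lower, and 2315, 2517 and 2604 in oeCTRL and 481, 579 and 476 in oeATOH8, 4.84-fold lower, the widest gap between the comparisons among these named cadherins. MUC16 was low throughout the RSL3 table, at 10.99, 9.93 and 13.1 in DMSO and 0, 1.88 and 0 in RSL3, where 2 RSL3 libraries held 0 reads, and it read 191, 232 and 179 in oeCTRL and 4.86, 0 and 12.6 in oeATOH8.

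The remaining 3 of the 14 had opposite signs. PKP1, a desmosomal plaque protein, read 109.9, 139 and 127 in DMSO and 419.9, 227 and 282 in RSL3, 2.47-fold higher, and 161, 168 and 149.9 in oeCTRL and 52.5, 78.9 and 61.04 in oeATOH8, 2.49-fold lower, with no overlap in either. TJP3, a tight junction scaffold, was 1.46-fold higher with RSL3 and 3.93-fold lower with ATOH8. CLDN1, a tight junction strand protein, was the reverse: it read 162, 619 and 517 in DMSO and 85.4, 181 and 159.6 in RSL3, and 6355, 6256 and 6661 in oeCTRL and 16087, 15368 and 15454 in oeATOH8. The RSL3 groups of CLDN1 overlapped, since DMSO replicate 1 lay below RSL3 replicate 2, and the ATOH8 groups did not. TJP3 and CLDN1 were picked after their values were seen.

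**Figure D3:**
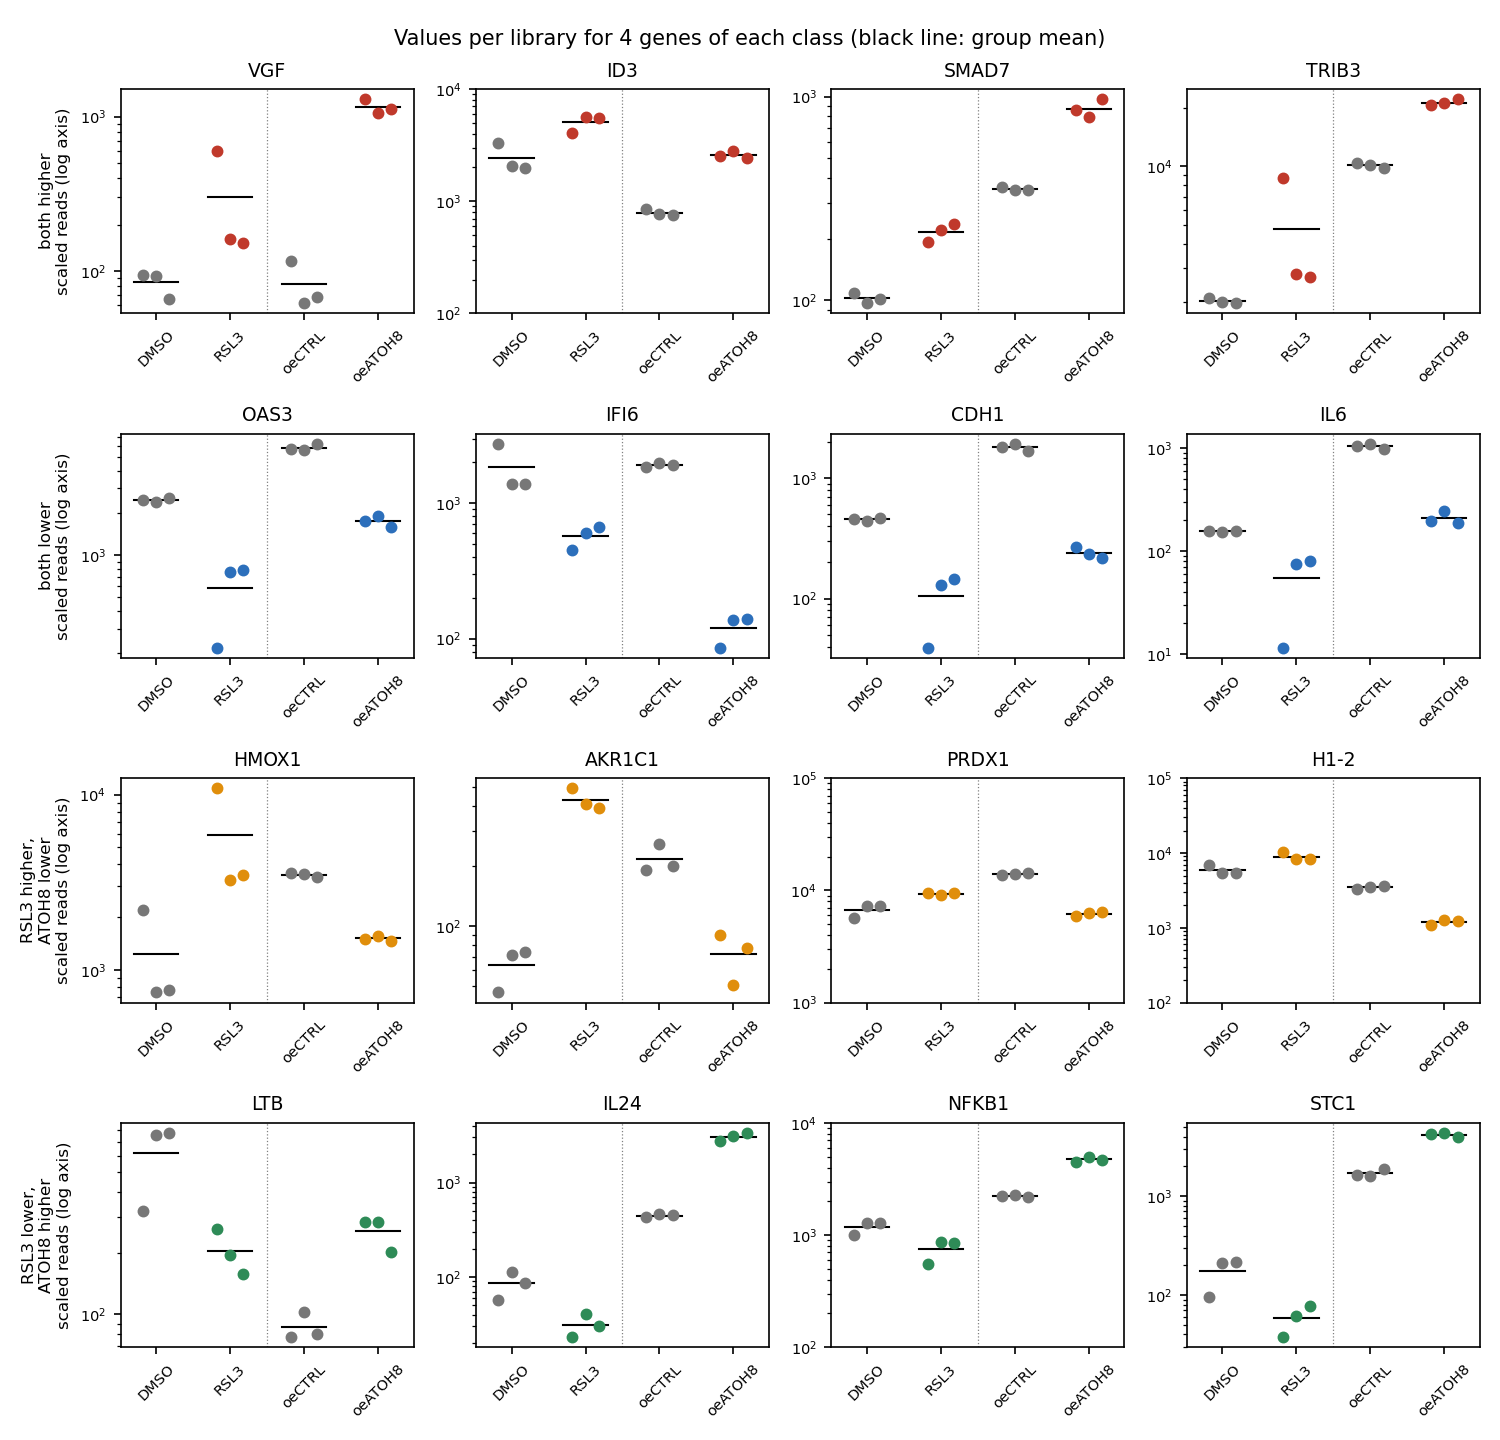
Values of every library for 4 genes of each class, as normalised reads (DMSO, RSL3) and scaled reads (oeCTRL, oeATOH8) on log axes, with black lines for group means; the dotted line separates the tables, which were scaled separately. VGF, TRIB3 and HMOX1 have 1 RSL3 library, replicate 1, far above the other two, and in OAS3, CDH1 and IL6 that library is the lowest.

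Other genes lower in both belonged to signalling, matrix, hypoxia and lipid lists. IL6, the inflammatory cytokine, read 157, 155 and 158 in DMSO and 11.6, 75.04 and 79.8 in RSL3, 2.83-fold lower, and 1064, 1108 and 988 in oeCTRL and 196, 249 and 189.9 in oeATOH8, 4.98-fold lower. CFB, a complement protease of the alternative pathway, read 212, 139.7 and 139.7 in DMSO and 37.6, 91.9 and 106 in RSL3, 2.09-fold lower, and 705, 755 and 805 in oeCTRL and 184, 257 and 206 in oeATOH8, 3.499-fold lower. Neither gene overlapped between groups, and in both RSL3 replicate 1 was the lowest library. BCL2A1, an anti-apoptotic BCL2 relative, read 80.2, 95.4 and 100.4 in DMSO and 5.79, 16.9 and 15.96 in RSL3, 7.15-fold lower, and 161, 222 and 219.8 in oeCTRL and 60.2, 111 and 87.2 in oeATOH8, 2.34-fold lower. Among the 4 shared hypoxia genes, 3 were lower in both: EGLN3, an oxygen-sensing prolyl hydroxylase (2.61-fold and 2.48-fold lower with RSL3 and ATOH8), the glycolysis regulator PFKFB4 (2.31-fold and 2.904-fold), and the helix-loop-helix repressor BHLHE40 (1.76-fold and 6.09-fold).

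Of 7 shared matrix genes, 5 were lower in both. FN1, fibronectin, read 109.9, 179 and 204 in DMSO and 20.3, 68.5 and 81.7 in RSL3, 2.89-fold lower, and 1031, 1137 and 1078 in oeCTRL and 495, 532 and 525 in oeATOH8, 2.09-fold lower. FBLN5, an elastic fibre protein, was 3.28-fold and 2.51-fold lower. PXDN, a peroxidase that cross-links collagen in basement membranes, was among the 8 largest of the class by the smaller of its log2 ratios, at 51.7, 132 and 127 in DMSO and 15.9, 27.2 and 41.3 in RSL3, 3.69-fold lower, and 319.6, 259.5 and 313 in oeCTRL and 63.1, 68.7 and 59.1 in oeATOH8, 4.67-fold lower. GALNT6, which starts mucin-type O-glycans, was another, at 61.5, 131 and 136 in DMSO and 27.5, 37.5 and 27.2 in RSL3, 3.56-fold lower, and 274, 263 and 287 in oeCTRL and 83.5, 50.2 and 68.8 in oeATOH8, 4.06-fold lower. In both of these the libraries of the groups were apart. Lipid genes were few: APOE, the lipid carrier apolipoprotein, was 2.81-fold lower with RSL3 (4.64-fold without RSL3 replicate 1) and 4.52-fold with ATOH8. ABCA1, a cholesterol exporter, was 3.26-fold and 3.21-fold lower, INSIG1, a brake on sterol synthesis, 1.58-fold and 3.62-fold, and CPT1C, a neuronal relative of carnitine palmitoyltransferase, 2.06-fold and 3.46-fold. Of the 48 ferroptosis regulators on the list, 7 were in the RSL3 table and 1 in the ATOH8 table, and none was in both.

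Genes higher in both were led by ATOH8 itself (chromosome 2, 85753786 to 85791383 on GRCh38, plus strand). It read 26.4, 35.1 and 40.1 in DMSO and 358, 429 and 470.2 in RSL3, 12.4-fold higher with RSL3, and 12.6, 10.3 and 4.11 in oeCTRL and 74313, 74390.0 and 73682 in oeATOH8. The second pair of groups includes reads from the construct, so the 8225-fold ratio there is not a response of the cells' own gene. VGF, a secreted neuropeptide precursor, read 94.5, 93.2 and 66.3 in DMSO and 595, 160.4 and 153 in RSL3, 3.58-fold higher, or 1.85-fold without RSL3 replicate 1, and 116, 62.03 and 67.8 in oeCTRL and 1298, 1053 and 1115 in oeATOH8, 14.1-fold higher. CATSPER1, a sperm calcium channel subunit, read 56.1, 42.8 and 42.8 in DMSO and 329, 79.7 and 97.6 in RSL3, 3.57-fold higher, or 1.88-fold without RSL3 replicate 1, and 52.3, 50.7 and 30.8 in oeCTRL and 151, 159 and 184 in oeATOH8, 3.69-fold higher. CD22, a sialic acid-binding receptor of B cells, read 29.7, 35.1 and 50.6 in DMSO and 408, 105 and 105 in RSL3, 5.36-fold higher, or 2.73-fold without RSL3 replicate 1, and 229, 220.2 and 153 in oeCTRL and 589.6, 594 and 509.7 in oeATOH8, 2.81-fold higher. In these 3 genes RSL3 replicate 1 was 3 or more times each of the other RSL3 libraries, while the oeATOH8 libraries lay close together. TMEM200C, a transmembrane protein, showed no such library: it read 204, 178 and 215 in DMSO and 443, 523 and 477 in RSL3, 2.42-fold higher, and 265, 309 and 344 in oeCTRL and 858, 993 and 791 in oeATOH8, 2.88-fold higher. The other genes among the 8 largest were TGFBR3L, a relative of the TGF-beta co-receptor betaglycan (3.14-fold and 4.396-fold higher), the amino acid carrier SLC43A1 (2.72-fold, or 1.69-fold without RSL3 replicate 1, and 2.45-fold) and the transcription factor KLF2 (2.35-fold and 2.97-fold).

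Feedback and target genes of BMP and TGF-beta signalling were in this class. Of 56 genes on the BMP, TGF-beta and Notch list, 12 were in each table (9 higher and 3 lower with RSL3, 6 higher and 6 lower with ATOH8), and 4 were shared. NOG, a secreted BMP antagonist, read 57.2, 58.03 and 36.7 in DMSO and 89.8, 139.8 and 126 in RSL3, 2.34-fold higher, and 14.5, 33.1 and 11.3 in oeCTRL and 115, 153 and 113 in oeATOH8, 6.46-fold higher, or 9.83-fold without oeCTRL replicate 2. SMAD7, an inhibitor of the receptors' kinase signal, read 109, 96.97 and 102 in DMSO and 194, 222 and 236 in RSL3, 2.12-fold higher, and 361, 347 and 348 in oeCTRL and 856, 791 and 972 in oeATOH8, 2.48-fold higher. ID3, which binds E proteins and keeps them off DNA, read 3313, 2043 and 1961 in DMSO and 4059, 5591 and 5562 in RSL3, 2.08-fold higher, and 845, 774 and 758 in oeCTRL and 2511, 2807 and 2404 in oeATOH8, 3.25-fold higher. Groups were apart in all 3 genes, and in each of them RSL3 replicate 1 was the lowest RSL3 library, unlike VGF and TRIB3.

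Targets of ATF4 were higher in both where shared. The list's 48 genes had 20 in the RSL3 table (19 higher, 1 lower) and 5 in the ATOH8 table (5 higher, 0 lower). The 4 in both are 20% of the first and 80% of the second. TRIB3, a pseudokinase that feeds back on ATF4, read 2105, 2013 and 1982 in DMSO and 8718, 2789 and 2714 in RSL3, 2.33-fold higher, or 1.35-fold without RSL3 replicate 1, and 10463, 10206 and 9840.4 in oeCTRL and 20595, 21077 and 22153 in oeATOH8, 2.09-fold higher. PPP1R15A, which brings a phosphatase to eIF2 alpha and so restarts translation, read 906, 1071 and 1016 in DMSO and 2961, 1499 and 1472 in RSL3, 1.98-fold higher, and 4593, 4927 and 5094 in oeCTRL and 13849, 14094 and 12286 in oeATOH8, 2.75-fold higher. CEBPB, a leucine zipper partner of ATF4, was 1.58-fold higher with RSL3, with groups that overlapped, and 2.02-fold higher with ATOH8. STC2, a secreted glycoprotein picked after its values were seen, was 1.37-fold and 2.33-fold higher, but its RSL3 sign turned under scaling by library totals (log2 ratio -0.041). TRIB3, PPP1R15A and STC2 had groups apart in both tables, and RSL3 replicate 1 was the highest library in all 4 genes in the RSL3 table. The p53 targets BBC3, a pro-apoptotic BH3 protein, and AEN, an apoptosis-enhancing nuclease, were also higher in both, BBC3 by 1.75-fold and 2.099-fold and AEN by 1.502-fold and 2.003-fold.

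Of the 78 genes higher in both, 53 were on no list or family used here. Several of these, grouped after their values were seen and with no list behind them, encode ribosome assembly and mitochondrial proteins. The assembly factor BOP1 read 7378, 5137 and 5108 in DMSO and 15063, 7701 and 7864 in RSL3, 1.74-fold higher, and 1689.9, 1687 and 1722 in oeCTRL and 4433, 4806 and 4606 in oeATOH8, 2.71-fold higher. RRP12 and RRP9, which act in the processing of ribosomal RNA, were 1.84-fold and 1.84-fold higher with RSL3 and 2.18-fold and 2.46-fold with ATOH8, and the nucleolar proteins NOL6 and NPM3 were 1.45-fold and 2.02-fold, and 2.11-fold and 2.31-fold higher. The mitochondrial ribosomal protein MRPL12 read 7634, 5175 and 5186 in DMSO and 13772, 8019 and 7842 in RSL3, 1.65-fold higher, and 1582, 1559 and 1558 in oeCTRL and 4305, 4323 and 4292 in oeATOH8, 2.75-fold higher. CYC1, cytochrome c1 of complex III, was 1.68-fold and 2.22-fold higher, and the complex I subunits NDUFB7 and NDUFA7, from the respiratory chain list, were 1.67-fold and 1.51-fold higher with RSL3 and 2.01-fold and 2.15-fold with ATOH8. SRM, spermidine synthase, was 1.496-fold and 3.37-fold higher, and EIF4EBP1, which holds back cap-dependent translation, 2.07-fold and 3.08-fold. DMSO replicate 1 and RSL3 replicate 1 were each the highest of their group for BOP1 and MRPL12, and the RSL3 groups of NDUFB7 overlapped.

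The opposite class of 33 genes, higher with RSL3 and lower with ATOH8, held every NRF2 target that both tables listed. Of 39 targets on the list, 17 were in the RSL3 table (17 higher, 0 lower) and 6 in the ATOH8 table (0 higher, 6 lower). The 4 in both, 23.5% and 66.7% of those sets, had median log2 ratios of 2.13 with RSL3 and -1.37 with ATOH8. HMOX1, haem oxygenase, which frees iron from haem, read 2185, 742 and 763 in DMSO and 10854, 3239.9 and 3458 in RSL3, 4.76-fold higher, and 3568, 3520.5 and 3374 in oeCTRL and 1503, 1556 and 1466 in oeATOH8, 2.31-fold lower. Without RSL3 replicate 1 the first fold was 2.72 and without DMSO replicate 1 it was 7.78, since replicate 1 was the highest library of both groups. AKR1C1, an aldo-keto reductase that reduces ketosteroids and lipid aldehydes, read 46.2, 71.01 and 74.2 in DMSO and 492, 409 and 393 in RSL3, 6.76-fold higher, and 191, 258 and 199 in oeCTRL and 89.4, 50.2 and 77.5 in oeATOH8, 2.99-fold lower. AKR1C2 read 23.1, 21.4 and 27.1 in DMSO and 106, 94.7 and 86.3 in RSL3, 4.01-fold higher, and 61.01, 86.8 and 60.6 in oeCTRL and 45.7, 11.3 and 15.5 in oeATOH8, 2.88-fold lower, or 5.19-fold without oeATOH8 replicate 1. These reductases are near-identical in sequence, so reads can be shared between them and their separate values are uncertain. PRDX1, a peroxidase that removes hydrogen peroxide, read 5660.4, 7229 and 7239 in DMSO and 9494, 9136 and 9413 in RSL3, 1.39-fold higher, and 13623, 14086 and 14212 in oeCTRL and 5959, 6312 and 6368 in oeATOH8, 2.25-fold lower. For all 4 the groups were apart in both tables.

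Histone genes lay in the opposite classes. Of 118 by name, 10 were in the RSL3 table (8 higher, 2 lower) and 23 in the ATOH8 table (1 higher, 22 lower), and 5 were shared. H2AC6, a core histone gene, read 496, 663 and 625 in DMSO and 859, 950.2 and 966 in RSL3, 1.56-fold higher, and 2603, 2845 and 2790.3 in oeCTRL and 1071, 1174 and 1276 in oeATOH8, 2.34-fold lower. H4C12, another, was 2.32-fold higher and 2.31-fold lower, as were H2BC5 (1.54-fold and 4.12-fold) and the linker histone gene H1-2 (1.52-fold and 2.89-fold), both picked after their values were seen. Core histone genes are near copies of each other, and most of their transcripts lack a poly(A) tail, so their counts depend on library type, which is not given in the sources used here. Without AKR1C and histone genes, an alternative added after seeing the data, the opposite classes held 27 and 16 genes.

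The rest of this class had no common role among the lists. Of its 33 genes, 15 were on no list or family. SEMA3F, an axon guidance ligand, read 407, 253 and 223 in DMSO and 1519, 958 and 814 in RSL3, 3.73-fold higher, and 251, 259.5 and 229 in oeCTRL and 114, 76.9 and 133 in oeATOH8, 2.29-fold lower. FIBCD1, a receptor for acetylated compounds such as chitin, read 89.03, 79.4 and 60.2 in DMSO and 345, 186 and 231 in RSL3, 3.33-fold higher, and 129.8, 88.9 and 93.5 in oeCTRL and 35.9, 55.4 and 52.3 in oeATOH8, 2.17-fold lower. Genes of the membrane skeleton were among the 8 largest: ANK1, an ankyrin, was 3.13-fold higher and 2.498-fold lower, and SPTBN4, a beta spectrin, 2.45-fold and 2.11-fold. ANK1 was lowest in RSL3 replicate 1, at 70.95 where its other RSL3 libraries read 224 and 206, while SPTBN4 was highest there. ADAP1, a GTPase-activating protein for ARF6, was 2.06-fold higher and 2.17-fold lower. Of 5 shared ion channel subunits, HCN2, a pacemaker channel, read 94.5, 68.7 and 57.6 in DMSO and 211, 241 and 256 in RSL3, 3.21-fold higher, and 82.3, 106 and 98.6 in oeCTRL and 43.7, 53.3 and 45.5 in oeATOH8, 2.02-fold lower. The glutamate receptor subunit GRIN2C and the GABA receptor subunit GABRD had the same signs, while the potassium channel KCNK1 (2.82-fold and 2.07-fold) and the cyclic nucleotide-gated channel CNGA1 were lower in both.

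The smallest class, 17 genes lower with RSL3 and higher with ATOH8, held 3 of the 6 shared cytokine and NF-kB genes. That list's 58 genes had 17 in the RSL3 table (0 higher, 17 lower) and 14 in the ATOH8 table (9 higher, 5 lower), so the genes shared were lower with RSL3 throughout and split with ATOH8. LTB, a membrane lymphotoxin, read 321, 759 and 773 in DMSO and 261, 195 and 159 in RSL3, 3.02-fold lower, and 77.5, 102 and 80.1 in oeCTRL and 283, 285 and 202 in oeATOH8, 2.96-fold higher. IL24, a cytokine of the interleukin-10 family, read 57.2, 112 and 87.3 in DMSO and 23.2, 40.3 and 30.03 in RSL3, 2.74-fold lower, and 429, 462 and 449.8 in oeCTRL and 2766, 3077 and 3335 in oeATOH8, 6.84-fold higher. NFKB1, which encodes the p105 precursor of the NF-kB subunit p50, read 1000.2, 1276 and 1281 in DMSO and 547, 867 and 857 in RSL3, 1.57-fold lower, and 2242, 2256 and 2189.5 in oeCTRL and 4522, 5004 and 4648 in oeATOH8, 2.12-fold higher. Groups were apart in all 3. DMSO replicate 1 was the lowest control library in each of them. IL6, CXCL6 and CFB of the same list were lower in both; CXCL6, a neutrophil chemokine picked after its values were seen, was 4.82-fold lower with RSL3 and 2.56-fold lower with ATOH8.

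The NF-kB site, searched by a textbook consensus of 10 bases on both strands with overlaps kept, was found in 2 of 13 promoter windows of this class (15.4%), in 5 of 93 of the class lower in both (5.38%), in 1 of 23 and in 0 of 60 of the other classes, and in 0.579% of all windows. The stretches below are shown because genes of the list carry a match on either side of the ATOH8 split: IL6 and CXCL6 were lower in both, and LTB and NFKB1 were lower with RSL3 and higher with ATOH8. Capitals mark the match, 5′ to 3′ on the gene's strand, with RefSeq positions on GRCh38.p14.
IL6 (chr7:22727102-22727161, plus strand, bases -98 to -39 from the start): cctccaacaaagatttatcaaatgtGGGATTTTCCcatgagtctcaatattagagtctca
CXCL6 (chr4:73836563-73836622, plus strand, bases -115 to -56 from the start): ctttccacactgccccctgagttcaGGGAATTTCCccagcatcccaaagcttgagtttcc
LTB (chr6:31582477-31582536, minus strand, bases -111 to -52 from the start): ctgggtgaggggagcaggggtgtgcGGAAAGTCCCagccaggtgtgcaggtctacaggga
NFKB1 (chr4:102501285-102501344, plus strand, bases -74 to -15 from the start): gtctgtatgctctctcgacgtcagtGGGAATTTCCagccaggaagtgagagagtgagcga
CXCL6 and NFKB1 hold the same 10 bases, and their ATOH8 ratios had opposite signs. LTB holds its match in the reverse orientation.

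STC1, a secreted glycoprotein induced by hypoxia, read 95.6, 211 and 214 in DMSO and 37.6, 60.97 and 77.9 in RSL3, 2.95-fold lower. It read 1636, 1614 and 1868 in oeCTRL and 4293, 4343 and 3926 in oeATOH8, 2.45-fold higher. Its ATOH8 sign thus differed from that of the 3 other shared hypoxia genes, while its RSL3 sign was the same. Of the whole hypoxia list, 4 genes were higher and 5 lower in the ATOH8 table. RBMS2, an RNA-binding protein, read 1428, 2142 and 2184 in DMSO and 654, 1279.5 and 1349 in RSL3, 1.75-fold lower, and 6952, 7712 and 7102 in oeCTRL and 15901, 17178 and 17128 in oeATOH8, 2.31-fold higher. ZNF185, a LIM-domain actin regulator, was 1.62-fold lower and 2.04-fold higher. HYI, a putative hydroxypyruvate isomerase, read 1348, 1359.9 and 1401 in DMSO and 1180.1, 944 and 994 in RSL3, 1.32-fold lower, and 25.2, 21.7 and 15.4 in oeCTRL and 67.99, 126 and 114 in oeATOH8, 4.95-fold higher, the smallest RSL3 difference of the class. NFATC2, a calcium-regulated transcription factor, read 104, 224 and 221 in DMSO and 46.3, 109 and 74.1 in RSL3, 2.39-fold lower, and 884, 836 and 800.0 in oeCTRL and 1723, 1846 and 1512 in oeATOH8, 2.02-fold higher. The RSL3 groups of NFATC2 overlapped, with DMSO replicate 1 below RSL3 replicate 2. DMSO replicate 1 also lay within the range of the RSL3 libraries for ETS1, EDN1 and CLDN1 of this class, so that 13 of its 17 genes had groups apart in both tables. ETS1, a transcription factor, and EDN1, a vasoconstrictor peptide, were picked after their values were seen; ETS1 was 2.298-fold lower and 2.38-fold higher, and EDN1 2.35-fold lower and 2.66-fold higher.

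Over all classes, a promoter window was found for 189 of the 252 genes (60, 93, 23 and 13 by class). E-boxes, searched as CANNTG, which is its own reverse complement, were found in 70%, 72.0%, 82.6% and 38.5% of the windows in that order, and in 68.9% of all windows. The form CAGATG, one of those reported for atonal-family factors and a subset of these E-boxes, was in 11.7%, 12.9%, 8.70% and 7.69%, and in 14.8% of all. The antioxidant response element core TGACNNNGC was in 18.3%, 6.45%, 13.0% and 23.1%, against 13.6%, and the hypoxia element core ACGTG in 31.7%, 23.7%, 21.7% and 7.69%, against 21.6%. The GC box GGGCGG was in 66.7%, 65.6%, 60.9% and 61.5%, against 44.6%. Each motif was searched on both strands. The median GC content of the windows was 67.2%, 62%, 64.3% and 61.7% by class, against 58.3% for all windows. Its part in these shares was not tested. The smallest class has 13 windows, so 1 window is 7.69% there.

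**Figure D4:**
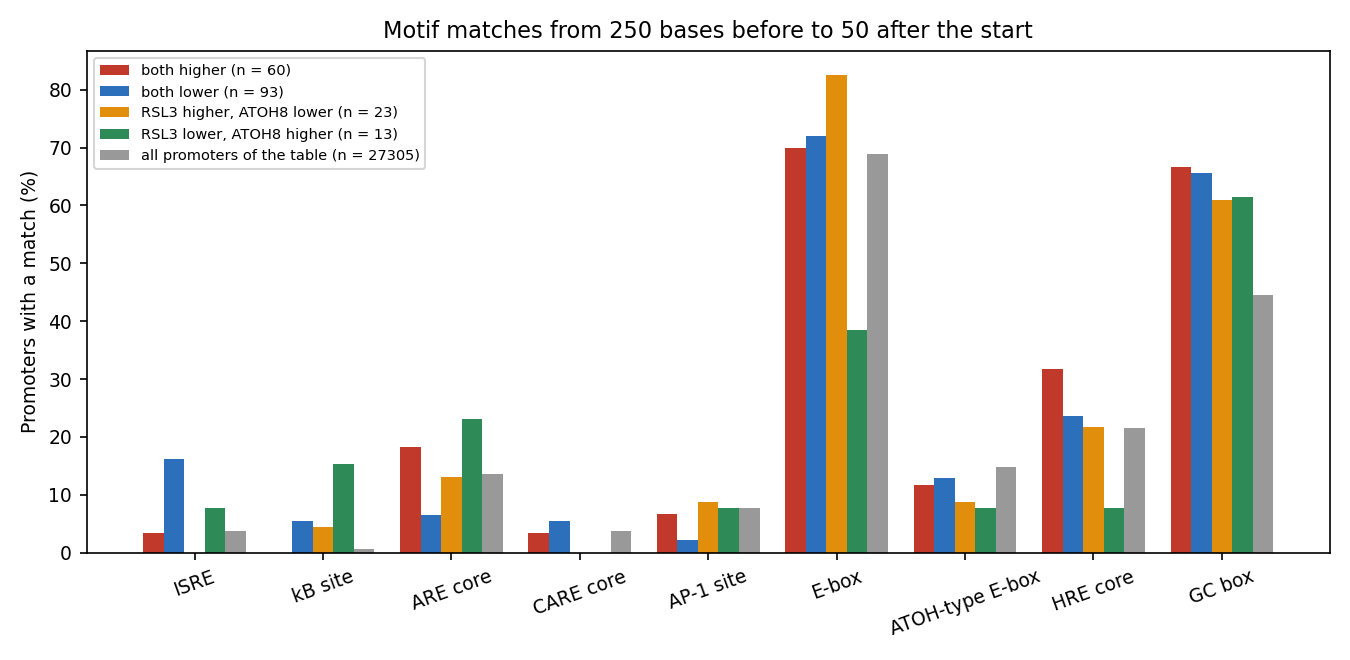
Bars give the percentage of promoter windows (250 bases before to 50 after the RefSeq start) with at least 1 match of each of 9 motifs, for the 4 classes and for all 27305 windows. The interferon-stimulated response element (ISRE) is in 16.1% of windows of the class lower in both and in 3.65% of all windows; C/EBP-ATF (CARE) cores and AP-1 sites are in at most 8.70% of any class.

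The classes also differed in base composition and length, which the rule did not use. The median GC content of each gene's longest GENCODE transcript was 60.9% for genes higher in both and 51.2% for genes lower in both, and it was 59.95% and 49.6% in the class higher with RSL3 only and the class higher with ATOH8 only. Over the whole tables it was 57.9% for genes higher and 47.9% for genes lower with RSL3, and 58.7% and 50.4% with ATOH8. GC content thus followed the RSL3 sign in the opposite classes. The median length of that transcript was 2146 bases for genes higher in both, 3692 for genes lower in both, and 3408 and 3883 in the opposite classes. The part of base composition and length in the class counts was not tested.

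Other lists and families held few shared genes, and 136 of the 252 were on none. G protein-coupled receptors had 3, all lower in both: GPRC5B, an orphan receptor (2.38-fold with RSL3 and 3.77-fold with ATOH8), PTGER2, a prostaglandin E2 receptor (2.17-fold and 4.06-fold), and P2RY6, a nucleotide receptor (1.81-fold and 4.199-fold). Solute carriers had 5. The riboflavin carrier SLC52A3 (3.42-fold and 2.24-fold) and the glucose carrier SLC2A10 (1.800-fold and 2.096-fold) were lower in both, while SLC43A1 and the mitochondrial carriers SLC25A10 and SLC25A11 were higher in both. FAM83A, a signalling scaffold, read 18269, 10291 and 10282 in DMSO and 7486, 7139 and 7202 in RSL3, 1.78-fold lower, and 18600.0, 18296 and 17761 in oeCTRL and 8480.5, 9075 and 8968 in oeATOH8, 2.06-fold lower, with groups apart. HLA-DMB, a chaperone of class II antigen loading, was 1.81-fold and 3.81-fold lower, and SPINT1, an inhibitor of membrane proteases, 2.16-fold and 2.88-fold lower. The single shared heat shock gene, HSPA2, was 1.73-fold and 4.54-fold lower, and the glutathione transferase GSTM3 1.54-fold and 2.29-fold lower. SNHG32, a small nucleolar RNA host gene, was 2.08-fold and 2.19-fold higher. MMP24, a membrane matrix metalloprotease, was 1.52-fold higher with RSL3 and 2.27-fold lower with ATOH8. Of the matrix genes outside the class lower in both, BGN, biglycan, was 3.69-fold and 3.101-fold higher, and COL7A1, an anchoring fibril collagen, 3.64-fold higher and 2.59-fold lower. The RSL3 groups of both overlapped, and without RSL3 replicate 1 their RSL3 folds were 1.78 and 1.38. Lists of keratins, Wnt, Hedgehog and FGF genes, EGFR ligands, metallothioneins, cell cycle genes and autophagy genes, and the HOX and ribosomal protein families, had members in at least 1 table and 0 in both.

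All 252 genes kept their class when any 1 of the 12 libraries was left out. The authors' calls that listed these genes came from the same libraries, so signs were unlikely to turn. This stability is therefore no independent support for the classes. With replicate 1 alone in the RSL3 table, 1 gene changed class: BRDT, a testis bromodomain protein named because it was the single exception, read 2.198, 42.8 and 39.3 in DMSO and 2.896, 4.69 and 0.939 in RSL3. With replicates 2 and 3 alone, none changed. Leaving out 1 library moved the RSL3 fold by over 1.5 times for 8, 18, 3 and 1 genes of the 4 classes in the order above, most often with RSL3 replicate 1 left out (18 genes), and the ATOH8 fold for 1, 8, 4 and 0. Replicate 1 showed larger differences in 3 classes. The median log2 ratio with RSL3 was 0.86 in replicate 1 and 0.70 in replicates 2 and 3 for genes higher in both, -1.53 and -1.32 for genes lower in both, and 1.15 and 0.88 for genes higher with RSL3 and lower with ATOH8. For genes lower with RSL3 and higher with ATOH8 it was -1.12 and -1.27.

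**Figure D5:**
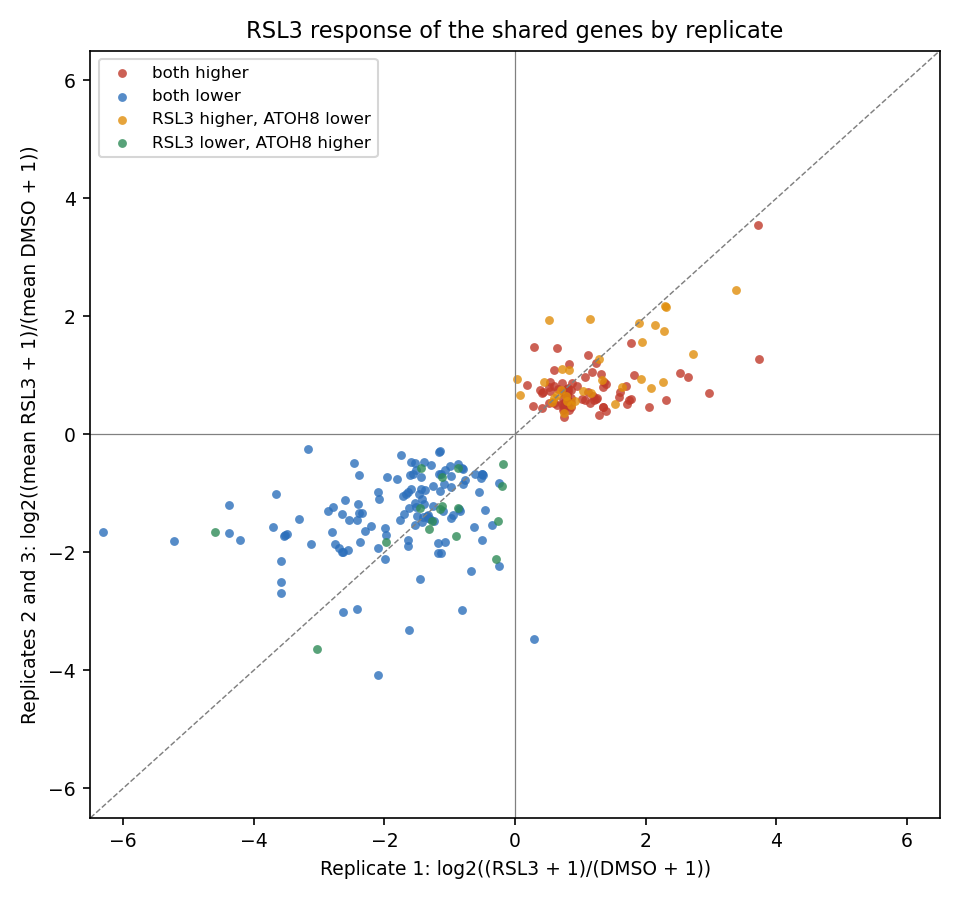
Each point is 1 of the 252 genes, with its log2 ratio of RSL3 over DMSO in replicate 1 (horizontal axis) and in the mean of replicates 2 and 3 (vertical axis), after adding 1 read to each value; the dashed line marks equal values. All but 1 point, BRDT, lie in the lower left or the upper right, so the sign is shared by replicate 1 and by replicates 2 and 3.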

How the data were processed

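RNA sequencing of 12 DU145 libraries was used, in 4 groups of 3 taken from the sample titles; the headings NC and OE were taken for oeCTRL and oeATOH8. Per the submitters' processing notes, fastp, HISAT2, StringTie and DESeq2 were used with hg38 (GRCh38), without versions or roles. The first deposited table holds a normalised signal per gene and library for RSL3 and DMSO. All of its values (100%) were whole multiples of 1 step per library within a tolerance of 0.001, as reads divided by a size factor are, so reads were recovered. The second deposited table holds raw read counts for oeCTRL and oeATOH8. Both list only genes that the authors called, with no fold or p. Strandedness is not given in the sources used here.

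RSL3 genes were named by position and strand: 1065 of 1810 by a span equal to a RefSeq gene, 552 by overlap with RefSeq and 164 by overlap with GENCODE (at least 0.5 of the row and 0.25 of the gene), with 29 left unnamed. Of 1424 ATOH8 rows, 1137 had a symbol through their Ensembl identifier, and 272 are assembled loci. Of the 252 shared genes 142 had an equal span. ATOH8 counts were scaled by the median ratio within each group, and a further factor between the groups centred the empty gap in log2 ratios on 0, which assumes symmetric limits in the authors' calls. RSL3 values kept the authors' scale. Levels between genes are not per length and were not compared.

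Tests ran under R 4.3.3, two-sided, over each whole table with Benjamini-Hochberg adjustment at 0.05: limma 3.58.1 (trended) on log2(value + 1) with low genes removed by filterByExpr of edgeR (count of 10, total of 15), and edgeR 4.0.16 quasi-likelihood on the ATOH8 counts. EdgeR on recovered reads called 1561 of 1732 genes and limma 1421. DESeq2 1.42.0 was run as a further alternative. The scripts were tested on simulated data. P-values measure the spread between these samples, which may be technical. Deviations from the group mean were correlated between libraries of equal replicate number. The correlations were 0.61, 0.47 and 0.45 in the RSL3 table and 0.057, 0.048 and 0.088 in the ATOH8 table. Deviations within a group depend on each other, and replicate 1 stood apart in both RSL3 groups. The values for replicates 2 and 3 can therefore follow from replicate 1 alone. They cannot show that these libraries pair by number, and other pairings were not compared. The main fits did not pair libraries, and a replicate block was fitted as an alternative.

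The named genes are ATOH8, the 8 largest per class by the smaller log2 ratio (mean of at least 50 in both tables, groups apart), up to 3 per list or family, and the genes nearest 0. The members, lists and rules were chosen with earlier results of these data known. Promoters and coordinates printed with sequences are RefSeq's on GRCh38.p14. Promoter motifs were searched as textbook consensus forms entered by hand, which the deposited files do not give; the interferon-stimulated response element and the NF-kB site are given by name alone, and the capitals in the printed stretches show the matched bases. Some genes that the rule or lists name are not reported here.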

Additional observations from a re-analysis of the deposited data

How the results depend on the processing

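The class counts kept within 1.5 times of those reported under every scaling tried and with any 1 library left out. For the ATOH8 scalings this was fixed in advance. No listed ATOH8 log2 ratio lay between -1.001 and 1.001, and the largest shift was 0.91. Scaling by library totals, TMM or relative log expression shifted all log2 ratios by -0.46, 0.31 and 0.91 in the ATOH8 table and by -0.46, -0.28 and -0.31 in the RSL3 table. It changed the class of 3 genes, all with RSL3 values scaled by library totals, where the counts were 75, 124, 33 and 20; CTPS1, BRI3 and STC2 then reversed, with log2 ratios of -0.031, -0.023 and -0.041. With a mean of at least 50 in both tables, 76 genes were lower in both and 11 lower with RSL3 and higher with ATOH8. With RSL3 rows of equal span alone, 46 were higher in both, 63 lower in both, and 8 lower with RSL3 and higher with ATOH8; these settings leave fewer genes.

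In fits without the replicate block, the number of shared genes passing in the RSL3 table ranged from 2 to 206 with 1 library left out, against 213. It was 2 without DMSO replicate 2 or 3, 74 and 76 without RSL3 replicates 2 and 3, 169 without RSL3 replicate 1, and 246 without replicate 1 in both groups (98.9% of all genes tested), which was added after seeing the data. Leaving out 1 library of replicates 2 and 3 sets unlike replicates against each other; the cause of the loss was not tested. With the replicate block, 241 of 243 passed in the RSL3 table and 252 in the ATOH8 table, against 99.3% and 100% of all genes tested. The block thus changed neither count by over 1.5 times. A class is the sign of a ratio of group means, which a block does not enter. DESeq2 called 243 and edgeR on recovered reads 226, against 99.7% and 90.1% of all genes tested. In the ATOH8 table every alternative called 249 to 252.

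Depth limits low genes: 66 of the 252 had a mean under 50 in a table, and folds of such genes can rest on 1 library. MUC16 has no RSL3 fold without RSL3 replicate 2, since the other RSL3 libraries held 0 reads.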
